A study of Homo sapiens with 24 samples.

Results

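The integrated stress response genes described here are 10 human genes of the ATF4 pathway: ATF4, ATF3, ATF5, DDIT3, DDIT4, TRIB3, CHAC1, ASNS, SESN2 and PPP1R15A. They were chosen by name for their known place in that pathway, and all 10 were found among the 24053 Ensembl identifiers of the deposited expression table. ARPE-19, an established human line derived from retinal pigment epithelium, was profiled by RNA sequencing after treatment with Pink1 siRNA, Nrf2 siRNA, both siRNAs together (Nrf2-Pink1 siRNA) or a scramble siRNA that serves as control. Each of the 4 groups holds 3 biological samples with 2 technical replicates each, 24 deposited samples in all, and the technical replicates were averaged. The labels call the siRNA groups knockout or KD. The growth protocol describes scratch wounding without saying whether the cells sequenced were wounded, so wounding may be shared by all 4 groups. Nothing says that the biological samples came from separate cultures, so p-values measure the spread between these samples only.

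In the integrated stress response, kinases that sense amino acid shortage, unfolded protein in the endoplasmic reticulum, viral RNA or mitochondrial damage phosphorylate the translation factor eIF2. Most protein synthesis then slows, while the message of ATF4 is translated more, so ATF4 activity is set largely after its transcript is made. ATF4 protein pairs with other bZIP factors and switches on genes for amino acid supply, redox defence and, in long stress, cell death. Pigment epithelium carries a heavy load of mitochondria and oxidants, and both PINK1, a kinase that marks damaged mitochondria, and NRF2, encoded by NFE2L2, act on such stress.

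To show the regulatory sequence in front of the members the results turn on, the 250 bases upstream of the start site are given for DDIT4, the member that passed the test, for PPP1R15A, and for ASNS. They are RefSeq promoters on GRCh38.p14, a different build from the GRCh37 (hg19) that the submitters' processing notes name for the expression values. DDIT4 covers chr10:72273674-72273923 on the plus strand, PPP1R15A chr19:48872171-48872420 on the plus strand and ASNS chr7:97872409-97872658 on the minus strand. Each is written 5′ to 3′ in lower case. Capitals mark ACGTG, the core of the hypoxia response element, in DDIT4. In PPP1R15A they mark 2 matches to TGACNNNGC, the core of the antioxidant response element bound by NRF2, the first of them on the reverse strand. In ASNS they mark TGATGNAA, the C/EBP-ATF response element bound by ATF4 dimers.
DDIT4: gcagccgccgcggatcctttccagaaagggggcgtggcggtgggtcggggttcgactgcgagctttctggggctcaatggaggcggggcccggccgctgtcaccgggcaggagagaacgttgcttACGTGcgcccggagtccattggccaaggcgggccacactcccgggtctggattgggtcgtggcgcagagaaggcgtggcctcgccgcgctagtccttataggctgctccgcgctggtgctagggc
PPP1R15A: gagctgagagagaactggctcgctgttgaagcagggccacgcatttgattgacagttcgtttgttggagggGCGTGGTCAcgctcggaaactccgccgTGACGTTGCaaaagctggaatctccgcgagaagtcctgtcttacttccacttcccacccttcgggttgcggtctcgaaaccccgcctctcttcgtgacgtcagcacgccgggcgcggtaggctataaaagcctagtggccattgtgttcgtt
ASNS: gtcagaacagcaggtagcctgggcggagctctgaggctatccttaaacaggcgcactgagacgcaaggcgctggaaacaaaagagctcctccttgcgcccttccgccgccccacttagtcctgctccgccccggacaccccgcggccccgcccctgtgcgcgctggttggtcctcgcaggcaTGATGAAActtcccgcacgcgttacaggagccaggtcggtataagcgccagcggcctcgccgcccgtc

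RefSeq promoter windows, from 250 bases before to 50 bases after a start site, were matched for 10 members, with 18 windows because some genes have several starts. Letters were searched on both strands. The C/EBP-ATF element TGATGNAA was found in 3 of the 18 windows, those of ATF3, CHAC1 and ASNS, and in 3.62% of 35116 human windows of the same length. In ASNS it spans positions -68 to -61 from the start. The antioxidant core TGACNNNGC was found in 4 windows, in TRIB3 and PPP1R15A, and in 13.3% of all windows. The TRIB3 windows overlap and hold the same site, so they are not separate matches. The hypoxia core ACGTG was found in 3 windows, in DDIT4 (positions -125 to -121) and ATF4, and in 21.4% of all windows. In ATF4 it is read on both strands at overlapping positions, and the ATF4 windows overlap and hold the same site. The endoplasmic reticulum stress element was found in 0 windows of the members and in 0.0769% of all windows. These are matches of letters, and binding was not measured.

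The values are TPM, transcript abundance per length scaled by the authors to the same total in each sample, so the read depth behind them is unknown. The targeted genes were checked first. PINK1 stood at 14.6 ± 3.22 TPM with Pink1 siRNA, 57.2 ± 8.35 with Nrf2 siRNA and 18.7 ± 2.93 with Nrf2-Pink1 siRNA, against 55.8 ± 1.93 with scramble (SD, n = 3 each). NFE2L2 stood at 68.7 ± 4.02 TPM with Pink1 siRNA, 20.025 ± 7.72 with Nrf2 siRNA and 28.9 ± 6.16 with Nrf2-Pink1 siRNA, against 80.7 ± 7.69 with scramble. Of the retinal pigment epithelium markers, RPE65 lay between 0 and 0.36 TPM and LRAT between 0.43 and 1.89 TPM, while MITF lay between 55.3 and 110 TPM and the keratin KRT8 between 728 and 1084 TPM. RPE65 and LRAT, markers of the mature visual cycle, were therefore low in this line. RLBP1, of the same list, lay between 0.39 and 3.69 TPM. The share of the TPM total held by one unnamed identifier, ENSG00000226958, was 15.5% in Nrf2-Pink1 replicate 3 and 41.4% in Nrf2-Pink1 replicate 1, with the other 10 samples between 24.9% and 38.6%. A larger share leaves less of the fixed TPM total for all other genes together, and those 2 samples are named below where a result rests on them.

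The members spanned a wide range of abundance. Averaged over the 12 samples, ATF4 stood at 209 TPM, at the 96.8th percentile of the 13810 genes tested, those that averaged 1 TPM or more. PPP1R15A followed at 36.9, DDIT4 at 35.6, DDIT3 at 24.4, TRIB3 at 12.9, SESN2 at 9.68, ASNS at 9.28, ATF5 at 7.39 and ATF3 at 6.35 TPM. CHAC1, an enzyme that degrades glutathione, averaged 0.732 TPM. It was the member that missed the minimum of 1 TPM, so 9 of the 10 members were tested. ATF4 was above every sample of every other member and CHAC1 was below, whereas the sample ranges of each pair of neighbours between them overlapped. The spread between biological samples of a group, on the log2(TPM + 1) scale, was lowest for ATF5 (SD 0.176) and highest for ATF3 (SD 0.432). For ATF4 it was 0.249, against 0.030 between technical replicates of a sample. For ATF5 both were of like size, at 0.176 between biological samples and 0.183 between technical replicates.

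**Figure D1:**
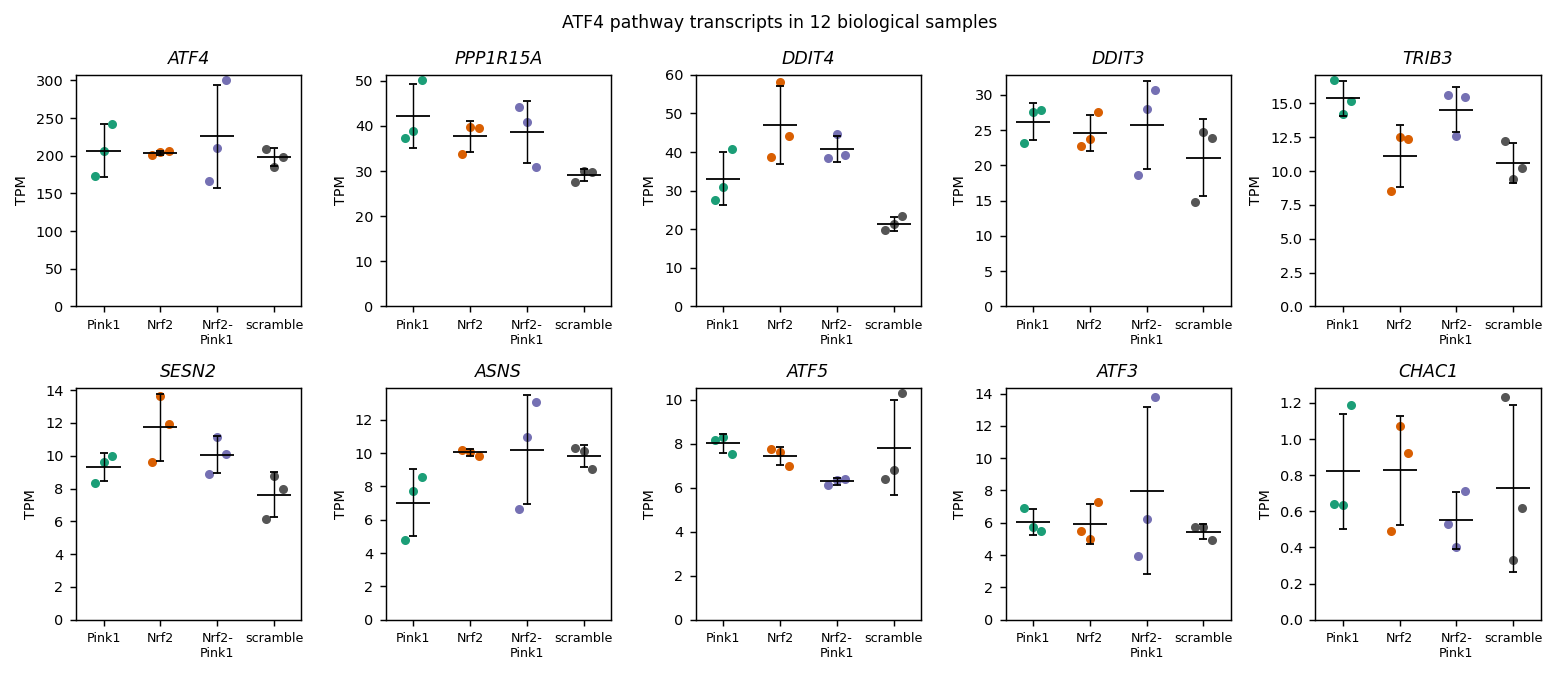
TPM of each of the 10 members by siRNA group, with Pink1, Nrf2 and Nrf2-Pink1 siRNA left of scramble. Points are biological samples, lines the group means and bars the SD (n = 3). DDIT4 lies above 27 TPM in all 9 samples with a targeting siRNA and below 24 TPM with scramble, while the ATF4 samples overlap.

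The question put to each group was how the transcripts of the pathway stood when PINK1, NRF2 or both were lowered, relative to scramble. ATF4, the transcription factor at the head of the pathway, stood at 173, 206 and 242 TPM with Pink1 siRNA, at 201, 205 and 206 with Nrf2 siRNA and at 167, 211 and 301 with Nrf2-Pink1 siRNA, against 210, 186 and 198 with scramble. The groups overlapped, and the Nrf2-Pink1 samples held both the lowest and the highest value of all 12. The log2 fold change against scramble was 0.05 with Pink1 siRNA (95% interval -0.37 to 0.47), 0.04 with Nrf2 siRNA (-0.38 to 0.46) and 0.15 with Nrf2-Pink1 siRNA (-0.27 to 0.57). None passed the threshold, and a test of any difference among the 4 groups gave an adjusted p of 0.957. Adjusted p-values here come from limma, with Benjamini-Hochberg adjustment over all 13810 genes, and an adjusted p under 0.05 counts as a call. In bulk RNA, fewer cells that hold a transcript and less of it per cell cannot be told apart. The processed ATF4 copies ATF4P3 and ATF4P4 averaged 0.072 and 0.119 TPM.

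The low and high ATF4 samples were those that stand apart in ENSG00000226958. With that identifier removed and the rest scaled to the same total, ATF4 stood at 268, 304 and 323 TPM with Pink1 siRNA, at 286, 333 and 304 with Nrf2 siRNA and at 284, 298 and 356 with Nrf2-Pink1 siRNA, against 320, 292 and 294 with scramble. The groups still overlapped. The biological SD of ATF4 was 0.128 on the log2 scale after that removal, against 0.249 before it. Over the 10 members the SD was smaller after the removal in 4 (ATF4, ATF3, DDIT3, ASNS) and larger in 6, among them DDIT4 (0.258 after it, 0.220 before) and PPP1R15A (0.289 after it, 0.189 before).

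DDIT4 encodes REDD1, an inhibitor of the growth kinase complex mTORC1 that is induced by ATF4, hypoxia and other stresses. It stood at 27.5, 31.1 and 40.7 TPM with Pink1 siRNA, at 38.7, 58.2 and 44.1 with Nrf2 siRNA and at 38.4, 44.7 and 39.3 with Nrf2-Pink1 siRNA, against 19.7, 21.3 and 23.3 with scramble. All 9 samples with a targeting siRNA were above all 3 scramble samples. DDIT4 rose with Nrf2 siRNA, to 47.0 ± 10.1 TPM against 21.4 ± 1.83 with scramble (SD, n = 3 each), a 2.11-fold difference (log2 1.08, SE 0.18, adjusted p = 0.0248). It also rose with Nrf2-Pink1 siRNA, to 40.8 ± 3.43 TPM, 1.86-fold above scramble (log2 0.90, SE 0.18, adjusted p = 0.0395). With Pink1 siRNA it averaged 33.1 ± 6.83 TPM, and the log2 fold change of 0.59 (95% interval 0.20 to 0.98) had an adjusted p of 0.201. The call with Nrf2 siRNA was lost when any 1 of 5 of the 6 libraries compared was left out (all but Nrf2 replicate 1), with log2 fold changes of 0.92 to 1.21 over all alternatives. The call with Nrf2-Pink1 siRNA was likewise lost in 5 of 6 leave-outs (all but Nrf2-Pink1 replicate 1), without a filter on low genes (adjusted p = 0.0669), with only the compared groups in the fit (adjusted p = 0.114) and with ENSG00000226958 removed (log2 0.80, adjusted p = 0.0546).

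The siRNA groups were also compared with each other for DDIT4. Nrf2-Pink1 siRNA against Pink1 siRNA gave a log2 fold change of 0.31 (95% interval -0.08 to 0.70, adjusted p = 0.917), and against Nrf2 siRNA -0.18 (-0.57 to 0.21, adjusted p = 0.892). Pink1 siRNA against Nrf2 siRNA gave -0.49 (-0.88 to -0.10, adjusted p = 0.296). These groups overlapped, and the tests do not show that they differ or that they act alike. With ENSG00000226958 removed, the Pink1 samples lay below the Nrf2 samples without overlap. The interaction, which is Nrf2-Pink1 minus Pink1 minus Nrf2 plus scramble, was -0.77 on the log2 scale (95% interval -1.32 to -0.22). The level with both siRNAs was thus below the sum of the single differences, at an unadjusted p of 0.00972 and an adjusted p of 0.763. No interaction was called by limma among the 13810 genes, of which 753 had an unadjusted p under 0.05.

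Beside DDIT4, summed white blood cell and macrophage markers (2 of 4 in the table) were at 42.3 to 105 TPM with Nrf2 siRNA and 34.1 to 52.5 with Nrf2-Pink1 siRNA, 25.3 to 31.0 with Pink1 siRNA, and 19.3 to 37.9 with scramble. Nearly all of this was CD68, a lysosomal protein that many cell types express. The defining leukocyte marker PTPRC lay between 0 and 0.445 TPM. The retinal pigment epithelium list (11 of 12 in the table) summed to 1552 to 2198 TPM with Pink1 siRNA, 1352 to 1646 with Nrf2 siRNA and 1718 to 2018 with Nrf2-Pink1 siRNA, against 1734 to 1972 with scramble. In it the pigment enzymes TYR and TYRP1 were called higher in all 3 comparisons with scramble. The part of these markers in the DDIT4 result was not tested. With ENSG00000226958 removed, DDIT4 stood at 42.7, 45.9 and 54.2 TPM with Pink1 siRNA, 55.2, 94.7 and 65.0 with Nrf2 siRNA and 65.4, 63.3 and 46.5 with Nrf2-Pink1 siRNA, against 30.1, 33.5 and 34.5 with scramble, so each siRNA group stayed above scramble. DDIT4-AS1, which overlaps DDIT4 on the opposite strand, averaged 0.878 TPM.

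PPP1R15A, also called GADD34, is a regulatory subunit of the phosphatase that removes the phosphate from eIF2 and so ends the response. It stood at 37.3, 38.8 and 50.3 TPM with Pink1 siRNA, at 33.7, 39.8 and 39.6 with Nrf2 siRNA and at 44.1, 40.9 and 30.9 with Nrf2-Pink1 siRNA, against 27.6, 30.1 and 29.7 with scramble. Every sample with a targeting siRNA was above every scramble sample, but with ENSG00000226958 removed Nrf2-Pink1 replicate 3 stood at 36.6 TPM, against 42.2 to 47.2 TPM with scramble. The log2 fold changes were 0.51 with Pink1 siRNA (adjusted p = 0.224), 0.36 with Nrf2 siRNA (adjusted p = 0.407) and 0.38 with Nrf2-Pink1 siRNA (adjusted p = 0.316), so none was called.

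SESN2, a leucine sensor and antioxidant protein that restrains mTORC1, stood at 8.32, 9.64 and 9.96 TPM with Pink1 siRNA, at 9.62, 13.7 and 11.9 with Nrf2 siRNA and at 8.88, 11.2 and 10.1 with Nrf2-Pink1 siRNA, against 6.14, 8.77 and 7.99 with scramble. Nrf2 and Nrf2-Pink1 samples were above all scramble samples, and Pink1 samples overlapped with them. With ENSG00000226958 removed, both groups overlapped with scramble, at lowest values of 13.7 TPM with Nrf2 siRNA and 11.99 with Nrf2-Pink1 siRNA, against a highest value of 13.8 with scramble. The log2 fold changes were 0.56 with Nrf2 siRNA (95% interval 0.19 to 0.93, adjusted p = 0.199) and 0.36 with Nrf2-Pink1 siRNA (adjusted p = 0.365). TRIB3, a pseudokinase that binds ATF4 and AKT and dampens both, showed another order. It stood at 16.7, 14.2 and 15.2 TPM with Pink1 siRNA, at 8.51, 12.5 and 12.4 with Nrf2 siRNA and at 15.6, 12.6 and 15.4 with Nrf2-Pink1 siRNA, against 12.2, 9.38 and 10.2 with scramble. Both groups given Pink1 siRNA lay above scramble and above Nrf2 siRNA without overlap, while Nrf2 siRNA overlapped with scramble. With ENSG00000226958 removed, Pink1 siRNA stayed above scramble (20.2 to 25.9 against 14.7 to 18.7 TPM), while Nrf2-Pink1 siRNA (17.8 to 26.6 TPM) overlapped with scramble, and both overlapped with Nrf2 siRNA (12.1 to 20.3 TPM). Against scramble the log2 fold change was 0.50 with Pink1 siRNA (adjusted p = 0.246) and 0.42 with Nrf2-Pink1 siRNA (adjusted p = 0.283), and Pink1 siRNA against Nrf2 siRNA gave 0.45 (adjusted p = 0.319).

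**Figure D2:**
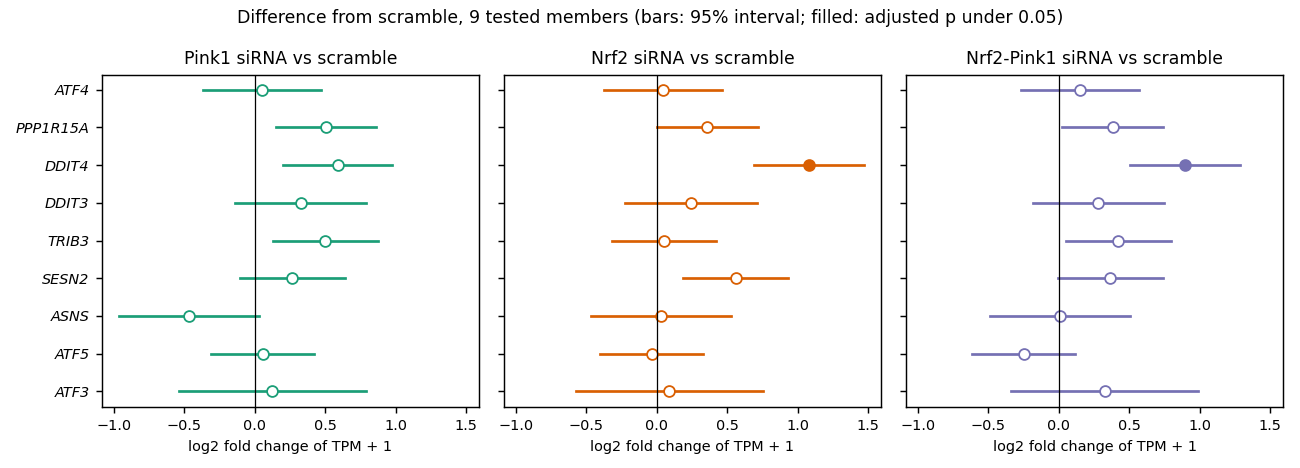
Log2 fold change of TPM + 1 against scramble for the 9 tested members, with Pink1, Nrf2 and Nrf2-Pink1 siRNA in separate panels. Bars are 95% intervals, and filled points passed an adjusted p of 0.05. DDIT4 is filled with Nrf2 siRNA (1.08) and Nrf2-Pink1 siRNA (0.90), and no other point is.

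ASNS, the enzyme that makes asparagine and a classical ATF4 target, ran the other way with Pink1 siRNA. It stood at 4.76, 7.72 and 8.59 TPM with Pink1 siRNA, at 10.2, 10.1 and 9.84 with Nrf2 siRNA and at 6.64, 11.0 and 13.0 with Nrf2-Pink1 siRNA, against 10.3, 10.1 and 9.07 with scramble. As averages of technical pairs, the Pink1 samples were below all samples of Nrf2 siRNA and of scramble, also with ENSG00000226958 removed. For ASNS the SD on the log2 scale was 0.232 within technical pairs and 0.304 within groups. The scramble pairs stood at 7.75 and 12.81, 7.39 and 12.84, and 8.01 and 10.14 TPM. The first value of each lay within the range of single Pink1 replicates (4.33 to 9.48 TPM), the second above it. The separation from scramble thus rests on averaging these pairs. The log2 fold change was -0.46 against scramble (95% interval -0.96 to 0.03, adjusted p = 0.444) and -0.49 against Nrf2 siRNA (adjusted p = 0.449), neither of them called. CHAC1, whose promoter also holds the C/EBP-ATF element, lay between 0.33 and 1.24 TPM in all samples, and its groups overlapped.

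Among the other bZIP factors, DDIT3 encodes CHOP, which ATF4 induces and which promotes cell death in long stress. It stood at 23.1, 27.6 and 27.8 TPM with Pink1 siRNA, at 22.7, 23.7 and 27.5 with Nrf2 siRNA and at 18.7, 28.0 and 30.7 with Nrf2-Pink1 siRNA, against 14.8, 24.7 and 23.9 with scramble. The groups overlapped, with log2 fold changes of 0.33, 0.24 and 0.28 in that order of siRNA groups and adjusted p-values of 0.573, 0.712 and 0.605. DDIT3 shares exon sequence with MARS1 (77.0 TPM) and MBD6 (6.66 TPM) on the opposite strand, and ATF5 with NUP62 (35.5 TPM). The libraries were stranded, but whether strand was used in counting is not given in the sources used here, so the values of DDIT3 and ATF5 are uncertain to that extent.

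ATF3, a stress-induced partner and repressor, stood at 6.94, 5.74 and 5.48 TPM with Pink1 siRNA, at 5.46, 5.01 and 7.30 with Nrf2 siRNA and at 3.92, 6.20 and 13.8 with Nrf2-Pink1 siRNA, against 5.72, 5.74 and 4.91 with scramble. Its highest value was again in Nrf2-Pink1 replicate 3 and its lowest in Nrf2-Pink1 replicate 1. The log2 fold change with Nrf2-Pink1 siRNA was 0.32 (adjusted p = 0.687) with replicate 3 and -0.11 without it, and that of ATF4 was 0.15 with it and -0.08 without it. ATF5, linked to mitochondrial stress, stood at 8.18, 8.32 and 7.52 TPM with Pink1 siRNA, at 7.74, 7.64 and 6.97 with Nrf2 siRNA and at 6.10, 6.34 and 6.42 with Nrf2-Pink1 siRNA, against 6.38, 6.78 and 10.3 with scramble. The Nrf2-Pink1 samples were below both single siRNA groups without overlap but overlapped with scramble. With ENSG00000226958 removed they overlapped with all 3 groups, since Nrf2-Pink1 replicate 1, at 10.4 TPM, was above the lowest sample of Pink1 siRNA and that of Nrf2 siRNA (10.3 TPM). Their log2 fold change was -0.31 against Pink1 siRNA (adjusted p = 0.915) and -0.21 against Nrf2 siRNA (adjusted p = 0.853).

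Over the 9 tested members, 0 were called with Pink1 siRNA, 1 with Nrf2 siRNA and 1 with Nrf2-Pink1 siRNA, each time DDIT4. The share of all 13810 genes called was 0.471%, 0.333% and 0.753% in these comparisons. At an unadjusted p under 0.05 there were 3 members in each of them, against 12.2%, 12.2% and 14.2% of all genes. Members whose samples lay above scramble without overlap numbered 3 with Pink1 siRNA (DDIT4, TRIB3, PPP1R15A), 3 with Nrf2 siRNA (DDIT4, SESN2, PPP1R15A) and 4 with Nrf2-Pink1 siRNA (DDIT4, TRIB3, SESN2, PPP1R15A). Over all genes such shares were 13.8%, 13.6% and 10.2%. ASNS with Pink1 siRNA was the single member below scramble without overlap, where 11.2% of all genes were. With Nrf2 and Nrf2-Pink1 siRNA 0 members were, against 9.26% and 7.82% of all genes. With ENSG00000226958 removed, the members above scramble numbered 3 with Pink1 siRNA, 2 with Nrf2 siRNA (DDIT4, PPP1R15A) and 1 with Nrf2-Pink1 siRNA (DDIT4), against 11.6%, 11.2% and 7.19% of all genes. The median log2 fold change of the members was 0.26, 0.09 and 0.32, against 0.02, 0.02 and 0.01 over all genes. These medians moved with single libraries and with the scaling, and those over all genes moved with the scaling too. With Pink1 siRNA the median was 0.14 with ENSG00000226958 removed (-0.04 over all genes) and 0.23 after median-of-ratios rescaling (-0.0043). It was 0.13 without scramble replicate 1. With Nrf2 siRNA it was 0.22, 0.19 and 0.04 without Nrf2 replicates 1, 2 and 3, and 0.16 without scramble replicate 3. With Nrf2-Pink1 siRNA it was 0.21 with ENSG00000226958 removed (-0.08 over all genes) and 0.30 after the rescaling (-0.005). It was 0.14 without Nrf2-Pink1 replicate 3. Under both scalings the median of the members stayed above that of all genes with Pink1 and Nrf2-Pink1 siRNA. The 3 comparisons share the scramble samples, so the values in one are not independent of those in another.

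Between the siRNA groups, limma called 0 members in Nrf2-Pink1 against Pink1 siRNA, in Nrf2-Pink1 against Nrf2 siRNA and in Pink1 against Nrf2 siRNA. Of all genes it called 0.0434%, 0.0145% and 0.992%. Without overlap, 0 members lay above and 1 below in Nrf2-Pink1 against Pink1 siRNA (3.18% and 5.68% of all genes), 1 above and 1 below in Nrf2-Pink1 against Nrf2 siRNA (3.83% and 5.66%), and 1 above and 1 below in Pink1 against Nrf2 siRNA (9.41% and 9.42%). These were ATF5, TRIB3 and ASNS. With ENSG00000226958 removed 0 tested members were apart in comparisons of Nrf2-Pink1 with a single siRNA group, and 2 lay below in Pink1 against Nrf2 siRNA (DDIT4, ASNS). CHAC1, which was not tested, then lay lower with Nrf2-Pink1 than with Pink1 siRNA (0.57 to 0.90 against 0.94 to 1.58 TPM). At an unadjusted p under 0.05 the members numbered 0, 1 and 2, against 5.80%, 6.95% and 11.2% of all genes. The test of any difference among the 4 groups called 1 member, DDIT4 (F = 13.8, adjusted p = 0.0348), and 1.13% of all genes, and it called DDIT4 in 4 of 12 leave-outs and 8 of 17 alternatives in all (adjusted p 0.0231 to 0.136). In this test 4 members had an unadjusted p under 0.05, against 13.8% of all genes. The interaction called 0 members, and 1 (DDIT4) had an unadjusted p under 0.05, against 5.45% of all genes.

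**Figure D3:**
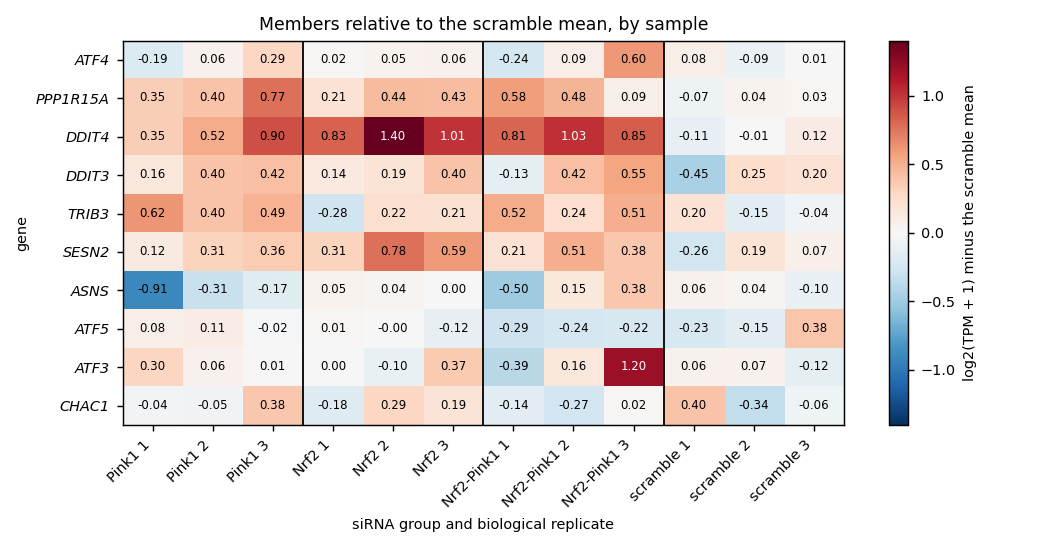
Log2(TPM + 1) of each member (rows, by mean level) minus its scramble mean, in each of the 12 samples (columns, Pink1, Nrf2, Nrf2-Pink1, then scramble). Red is above and blue below the scramble mean. The DDIT4 row is red in all 9 samples with a targeting siRNA, and ATF3 and ATF4 are reddest in Nrf2-Pink1 replicate 3.

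The members did not all follow the ATF4 transcript across samples. How the other members moved with each other was not tested. Over the 12 samples the Pearson r with ATF4 was 0.74 for ATF3, 0.68 for ASNS, 0.50 for DDIT3, 0.36 for CHAC1, 0.26 for DDIT4, 0.23 for SESN2, 0.17 for TRIB3, -0.09 for PPP1R15A and -0.16 for ATF5. Spearman's rho for ATF3 was 0.45. Without the 2 samples farthest from the ATF4 median, Nrf2-Pink1 replicates 3 and 1, r was -0.29 for ATF3, 0.48 for ASNS, 0.17 for DDIT3, 0.55 for CHAC1, 0.40 for DDIT4, 0.22 for SESN2, 0.14 for TRIB3, 0.52 for PPP1R15A and -0.20 for ATF5. The sign for ATF3 and PPP1R15A, and the size for DDIT3, CHAC1 and DDIT4, thus rest on those samples. These are descriptions, since all genes of a sample share its TPM total.

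The genes whose pattern was most like that of ATF4, among 9478 named genes that averaged 5 TPM or more, were NTPCR (r = 0.95), ATPAF1 (0.94), OAZ1 (0.94), CRK (0.93) and PSMD4 (0.93). Without the 2 samples farthest from the ATF4 median, Nrf2-Pink1 replicates 3 and 1, these r values lay between 0.73 and 0.87. Those most like DDIT4 were RUSF1 (0.97), ECM1 (0.96), TSKU (0.95), QSOX1 (0.95) and PLOD1 (0.95). Without the 2 samples farthest from the DDIT4 median, scramble replicates 1 and 2, these r values lay between 0.89 and 0.95. None of these genes is a member.

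The other genes of the pathway were read from lists. Upstream, the 17 eIF2 kinases and parts of the eIF2 machinery had 0 calls against scramble in each comparison. Of all genes, 0.471%, 0.333% and 0.753% were called with Pink1, Nrf2 and Nrf2-Pink1 siRNA, so 0 calls in a short list say little. In that order, 3, 1 and 2 of the 17 lay above scramble without overlap (13.8%, 13.6% and 10.2% of all genes). Below it lay 3, 4 and 1 (11.2%, 9.26% and 7.82%). These counts were not computed with ENSG00000226958 removed. EIF2S3 and EIF2S1, subunits of eIF2 and the most abundant of the list, had log2 fold changes with Nrf2-Pink1 siRNA of 0.01 and -0.27 (adjusted p = 1 and 0.586). Of the 5 partners and cofactors of ATF4, 0 were called, against the same shares of all genes called. CEBPB, a C/EBP factor that pairs with ATF4, stood at 20.3, 22.4 and 27.4 TPM with Pink1 siRNA, at 14.2, 16.7 and 14.1 with Nrf2 siRNA and at 16.9, 10.5 and 13.1 with Nrf2-Pink1 siRNA, against 18.0, 19.8 and 23.0 with scramble. Both groups given Nrf2 siRNA were below scramble without overlap, at log2 fold changes of -0.41 (adjusted p = 0.381) and -0.57 (adjusted p = 0.171). Of all genes, 9.26% and 7.82% were below without overlap in these comparisons. The highest Nrf2-Pink1 value of CEBPB was in replicate 1, where ENSG00000226958 held 41.4% of the TPM total. Whether the groups stay apart with that identifier removed was not computed. NUPR1, a stress cofactor, had log2 fold changes between -0.06 and 0.19. JDP2, a bZIP repressor singled out after its values were seen, averaged 8.52 ± 1.18 TPM with Pink1 siRNA, 8.63 ± 1.06 with Nrf2 siRNA and 8.18 ± 1.20 with Nrf2-Pink1 siRNA, against 3.96 ± 1.36 with scramble (SD, n = 3 each). Its groups did not overlap with scramble, which was not computed with ENSG00000226958 removed, and its adjusted p-values were 0.0563, 0.0646 and 0.0587.

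Downstream, 16 of 19 amino acid targets of ATF4 were tested, and BCAT1 was the single gene called. BCAT1, which starts the breakdown of branched-chain amino acids, stood at 54.2, 54.2 and 55.1 TPM with Pink1 siRNA, at 26.0, 25.2 and 29.7 with Nrf2 siRNA and at 22.8, 32.3 and 19.1 with Nrf2-Pink1 siRNA, against 46.5, 49.8 and 55.0 with scramble. It fell with Nrf2-Pink1 siRNA relative to scramble (log2 -1.03, adjusted p = 0.0192) and relative to Pink1 siRNA (log2 -1.14, adjusted p = 0.0380), and was higher with Pink1 than with Nrf2 siRNA (log2 0.99, adjusted p = 0.0178). With Nrf2 siRNA against scramble it had a log2 fold change of -0.88 and an adjusted p of 0.0534. The call against scramble held in 3 of 6 leave-outs, that against Pink1 siRNA in 1 of 6 and that between Pink1 and Nrf2 siRNA in 1 of 6. The test of any difference among the 4 groups called BCAT1 in 17 of 17 alternatives, 12 of 12 leave-outs among them (adjusted p 0.00328 to 0.0350). The list as a whole had medians of 0.22 with Pink1 siRNA, 0.13 with Nrf2 siRNA and 0.11 with Nrf2-Pink1 siRNA, against 0.02, 0.02 and 0.01 over all genes. In that order, 6, 6 and 5 of its genes lay above scramble without overlap, against 13.8%, 13.6% and 10.2% of all genes. Below it lay 1, 1 and 2, against 11.2%, 9.26% and 7.82%. None of these was computed with ENSG00000226958 removed, so how far they rest on the scaling was not tested.

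The cytosolic aminoacyl-tRNA synthetases with the tRNA exporter XPOT (13 genes), the other stress targets of ATF4 or CHOP (7 tested of 10) and the immediate-early genes (9 tested of 11) had 0 calls against scramble. Of all genes, 0.471%, 0.333% and 0.753% were called with Pink1, Nrf2 and Nrf2-Pink1 siRNA. The most abundant synthetases, GARS1 and SARS1, had log2 fold changes with Nrf2-Pink1 siRNA of 0.41 and 0.13 (adjusted p = 0.343 and 0.753). SQSTM1, an autophagy receptor, and EIF4EBP1, a translation repressor, led the stress targets in abundance, at log2 fold changes of 0.04 and 0.19 with Nrf2-Pink1 siRNA. Of the immediate-early genes the phosphatase DUSP1 and the survival gene IER3 had log2 fold changes of 0.14 and 0.17 with Nrf2-Pink1 siRNA.

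The XBP1 and ATF6 arms of the unfolded protein response, which run beside the ATF4 arm and supply chaperones to the endoplasmic reticulum, had calls in 2 of the 3 comparisons with scramble. Of 19 genes, 1 rose with Pink1 siRNA, 0 were called with Nrf2 siRNA and 2 rose with Nrf2-Pink1 siRNA. The disulphide isomerase PDIA4 stood at 123, 138 and 129 TPM with Pink1 siRNA, at 83.7, 92.4 and 89.5 with Nrf2 siRNA and at 116, 121 and 109 with Nrf2-Pink1 siRNA, against 65.0, 66.5 and 72.7 with scramble. Its log2 fold change was 0.92 with Pink1 siRNA (adjusted p = 0.00531), 0.75 with Nrf2-Pink1 siRNA (adjusted p = 0.0165) and 0.37 with Nrf2 siRNA (adjusted p = 0.217). The first of these calls held in 13 of 13 alternatives, 6 of 6 leave-outs among them, and the second in 7 of 12, 2 of 6 leave-outs among them. The test among the 4 groups called PDIA4 in 16 of 17 alternatives, 11 of 12 leave-outs among them. HYOU1, an endoplasmic reticulum chaperone, stood at 92.4, 102 and 112 TPM with Pink1 siRNA, at 89.5, 96.1 and 94.1 with Nrf2 siRNA and at 121, 111 and 89.1 with Nrf2-Pink1 siRNA, against 70.1, 60.2 and 64.1 with scramble. It was called with Nrf2-Pink1 siRNA (log2 0.71, adjusted p = 0.0424), but in 3 of 12 alternatives, 2 of 6 leave-outs among them. The call was lost without the filter, after median-of-ratios rescaling, with the replicate block, with only the compared groups in the fit and with ENSG00000226958 removed (adjusted p 0.0538 to 0.225, log2 0.61 to 0.71). Genes of this list above scramble without overlap numbered 10 with Pink1 siRNA, 13 with Nrf2 siRNA and 9 with Nrf2-Pink1 siRNA, against 13.8%, 13.6% and 10.2% of all genes. The medians were 0.27, 0.24 and 0.40 on the log2 scale, against 0.02, 0.02 and 0.01 over all genes. These counts and medians of the list were not computed with ENSG00000226958 removed, so how far they rest on the scaling was not tested. No test compared this list with the members.

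**Figure D4:**
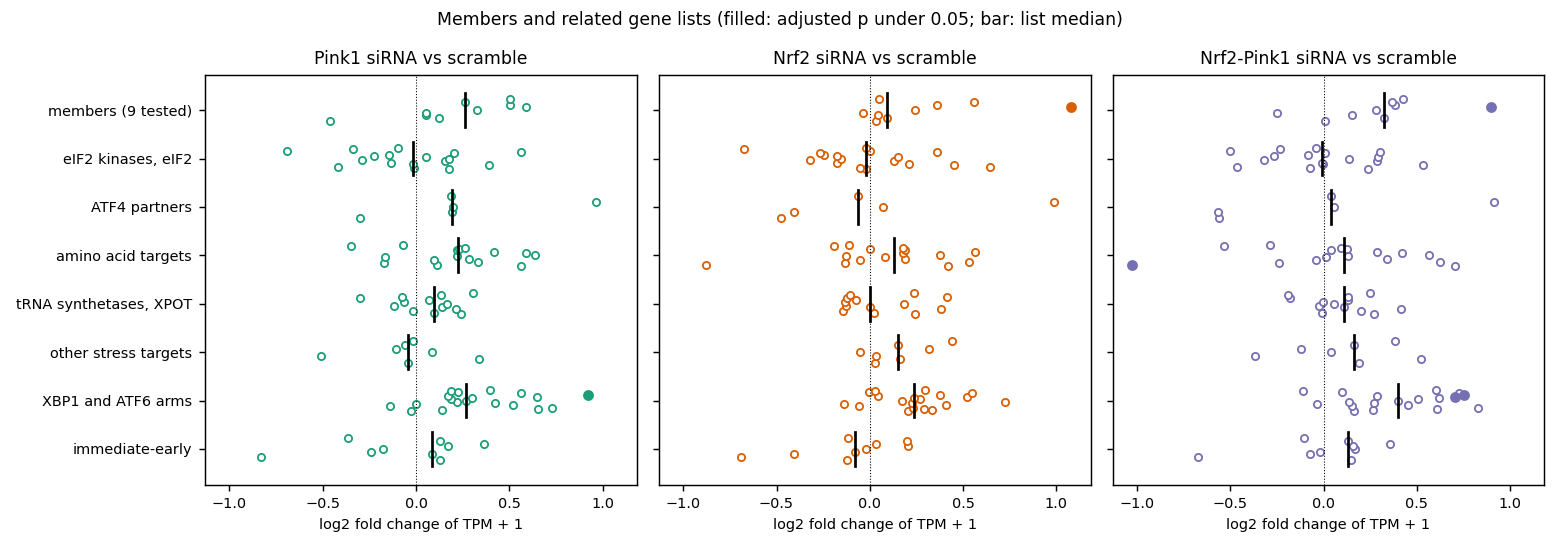
Log2 fold change of TPM + 1 against scramble for each tested gene of the members and of the 7 related lists, with a panel for each siRNA group. Points are genes, black bars the list medians, and filled points passed an adjusted p of 0.05. Filled points are DDIT4, BCAT1, PDIA4 and HYOU1, with BCAT1 left of 0.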

How the data were processed

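Per the submitters' processing notes, STAR, RSEM and edgeR were used with GRCh37 (hg19), without versions or roles. The deposited values are TPM computed by the authors, with columns that sum to 999678 to 999945, so read depth is unknown and its precision cannot be given. Gene names came from a name table that held 22789 of 24053 identifiers, 19325 of them with a symbol. TPM of technical pairs was averaged, and log2(TPM + 1) of the 13810 genes averaging 1 TPM or more was fitted with limma 3.58.1 in R 4.3.3 (4 groups, intensity trend, two-sided, 8 residual and 4.93 prior degrees of freedom), with Benjamini-Hochberg adjustment over all genes. A fold on this scale understates the change of low genes. With 3 samples against 3, a permutation test cannot go below p = 0.1, so none is given. The fit was also run on simulated data with independent noise for each gene. Those data lacked a shared TPM total, so they do not bear on the scaling. The members, gene lists and motifs were chosen with earlier results of these data known. Of each list the text names the genes called against scramble, or the 2 most abundant where none was. The alternatives were a pseudocount of 0.1, no filter, median-of-ratios rescaling, removal of ENSG00000226958, the compared groups alone, a replicate block and leaving out each sample. A fit without the Nrf2-Pink1 samples, and counts of members apart with ENSG00000226958 removed, were added after the data were seen.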

Additional observations from a re-analysis of the deposited data

How the results depend on the processing

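The count of members called against scramble was 1 with Nrf2-Pink1 siRNA and became 0 without a filter on low values, with ENSG00000226958 removed and with only the compared groups in the fit (DDIT4 adjusted p = 0.0669, 0.0546 and 0.114); the test of any difference among the 4 groups became 0 without the filter. Fewer samples or more genes enter some of these fits; the cause was not tested. Leaving out 1 sample at a time gave 0 to 1 members called with Nrf2 siRNA, with Nrf2-Pink1 siRNA and in the test among the 4 groups, where 8 of 12 leave-outs gave 0. DDIT4 was called in 8 of 13 alternatives with Nrf2 siRNA (adjusted p 0.0150 to 0.125) and in 4 of 12 with Nrf2-Pink1 siRNA (0.0239 to 0.151), always higher. Without Nrf2-Pink1 replicate 3 its log2 fold change there was 0.92 (adjusted p = 0.0676). Of 819 fold changes of members under alternatives, 49 had the other sign, none of a called value.

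Over all tested genes, same-numbered samples of different groups deviated together with r of -0.085 to 0.11. An r over all genes cannot show whether a shared batch shifted some of them. With the replicate block no member call changed (DDIT4 adjusted p = 0.0295 with Nrf2 siRNA and 0.0388 with Nrf2-Pink1 siRNA), while the genes called in all numbered 40 with Pink1 siRNA against 65 without the block, 30 against 46 with Nrf2 siRNA, and 1 against 6 in Nrf2-Pink1 against Pink1 siRNA. The calls of BCAT1 against Pink1 siRNA and of HYOU1 with Nrf2-Pink1 siRNA were lost under it.

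Counts over all genes moved more than those of the members. With Pink1, Nrf2 and Nrf2-Pink1 siRNA against scramble they were 65, 46 and 104 as reported, 171, 148 and 333 after median-of-ratios rescaling, and 172, 131 and 304 with ENSG00000226958 removed. With only the compared groups in the fit they were 195 with Pink1 siRNA and 20 with Nrf2-Pink1 siRNA, and without the filter 40 and 64. Leaving out 1 sample gave 22 to 40, 6 to 31 and 19 to 240. With the Nrf2-Pink1 samples out of the fit they were 175 with Pink1 and 155 with Nrf2 siRNA. Pink1 against Nrf2 siRNA gave 137 as reported, 79 without the filter, 296 after rescaling, 311 with the identifier removed and 35 to 174 in leave-outs. Nrf2-Pink1 against Pink1 siRNA gave 6 as reported, 13 after rescaling, 22 with the identifier removed, 2 with the compared groups alone and 1 to 16 in leave-outs; against Nrf2 siRNA it gave 2, with 0 to 4 over the alternatives. The interaction gave 0 as reported and 0 to 4 over the alternatives, and the test among the 4 groups 156 as reported, 75 without the filter, 441 after rescaling, 403 with the identifier removed and 34 to 321 in leave-outs. No scaling moved the median log2 fold change of all genes by over 0.1. Depth is unknown, so how far it limits the low members, CHAC1 above all, cannot be given.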
